A study of Homo sapiens with 4 samples.

Results

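The 78 genes described here encode the chains of collagens, laminins and integrins, and were chosen by name alone from the 58302 genes of the study, of which 19847 are protein-coding. A protein-coding gene was taken when its symbol began with COL, a number, A and a number, with LAMA, LAMB or LAMC and a number, or with ITGA or ITGB and a number, and names beginning with ITGB1BP were left out. The rule found 44 collagen genes, 12 laminin genes and 20 integrin genes. It also found 2 genes that share only the letters, COL4A3BP, which encodes a ceramide transfer protein, and ITGB3BP, which encodes a centromere protein. Integrin alpha genes named with a letter, such as ITGAV, lay outside the rule.

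The data were mRNA-seq of HepG2 cells, a human hepatocellular carcinoma cell line labelled wild type, grown in MEM with serum. Cells received 1 mM melatonin or DMSO, the vehicle, for 24 h or 48 h, which gave 4 groups with 1 library in each. There were thus no replicates, a difference at a single time could not be tested against the spread between cultures, and every interval of a level or ratio given here covers counting error only. The libraries served to compare gene expression and splicing between melatonin and DMSO. Levels are in FPKM, fragments scaled to the length of the gene and to the size of the library. Genes may be compared within a library, whereas differences between libraries also depend on how that size is taken. Rescaling to TPM, which gives each library the same total, shifted the median log2 fold change of protein-coding genes. For 48 h over 24 h with DMSO this shift was 0.47. Where 4 values stand in a row they are in library order, which is DMSO 24 h followed by melatonin 24 h and then DMSO 48 h followed by melatonin 48 h. The reads assigned to genes, which could be recovered from the FPKM as whole numbers, ranged from 21616676 to 23086025 per library, and genes of the mitochondrial genome took 9.77% to 19.96% of them.

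Collagens are trimers of chains with a long triple helix. Fibrillar collagens form the fibres of connective tissue, type IV collagens form the sheet of basement membranes, and FACIT collagens sit on the surface of fibres. Laminins are cross-shaped trimers of an alpha, a beta and a gamma chain, and are the other main polymer of basement membranes. Integrins are dimers of an alpha and a beta chain that span the cell membrane, bind these matrix proteins outside the cell and link them to the actin skeleton inside it. In liver, most fibrillar collagen is made by stellate cells and fibroblasts, whereas hepatocytes border a space with little basement membrane.

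The 6 chains of type IV collagen are encoded in 3 head-to-head gene pairs whose starts are so close that the sequence between them serves both genes. In these libraries the pairs differed in level. COL4A1 and COL4A2, the chains of most basement membranes, had at most 8 reads, and COL4A1 was listed at 0 in every library, for which 3 reads would be an FPKM of 0.0165 to 0.01996. COL4A5 and COL4A6 were the pair with measurable levels, and COL4A3 had 14 to 24 reads with 0 or 1 read of COL4A4. The starts of the pairs in RefSeq (GRCh38.p14) have 126 bases, 418 bases and 379 bases between them for COL4A1 and COL4A2, COL4A3 and COL4A4, and COL4A5 and COL4A6. The intervening or upstream sequences are shown because position and sequence were not used to choose the genes. They are written on the plus strand, with capitals marking the GC box motif GGGCGG or its reverse complement CCGCCC.
COL4A1-COL4A2, whole interval, chr13:110307158-110307283: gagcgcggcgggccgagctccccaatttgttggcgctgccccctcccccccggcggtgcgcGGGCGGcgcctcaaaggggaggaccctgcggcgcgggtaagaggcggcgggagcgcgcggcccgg
COL4A3, 250 bases upstream, chr2:227164374-227164623: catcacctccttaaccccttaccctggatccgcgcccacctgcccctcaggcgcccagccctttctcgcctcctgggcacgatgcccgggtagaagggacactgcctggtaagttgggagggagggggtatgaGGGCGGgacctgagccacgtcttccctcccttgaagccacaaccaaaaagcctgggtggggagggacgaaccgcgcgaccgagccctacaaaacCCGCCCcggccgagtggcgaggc
COL4A5, 250 bases upstream, chrX:108439588-108439837: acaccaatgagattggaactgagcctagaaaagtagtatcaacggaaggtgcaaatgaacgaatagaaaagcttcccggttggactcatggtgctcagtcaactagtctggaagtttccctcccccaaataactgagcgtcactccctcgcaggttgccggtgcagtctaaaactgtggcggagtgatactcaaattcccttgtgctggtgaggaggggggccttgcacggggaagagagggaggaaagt
The interval of COL4A1 and COL4A2, the pair with few or no reads, was 80.2% G or C with 20 CpG dinucleotides in 126 bases. The 250 bases upstream of the measured COL4A5 were 51.2% G or C with 8 CpG and no GC box. In windows of 250 bases there were 38 CpG for COL4A1, 40 for COL4A2, 17 for COL4A3, 20 for COL4A4 and 7 for COL4A6. Of the 78 genes, 55 had a start in the RefSeq table, and within the 250 bases before it GGGCGG on either strand lay in 30 of them (54.5%), as it did in 42.3% of the 27305 genes of the table. Among the 17 with a window and an FPKM of at least 1 it lay in 12 (70.6%), and among the 38 below that level in 18 (47.4%). The other genes were not split by level, so whether this difference is particular to these genes was not tested. The motif CCAAT lay in 23.6% of the 55 windows and in 33.0% of all windows, and TATAAA in 10.9% and 11.1%. A match of letters is a description and not a binding site.

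ITGA6 (chr2:172427354-172506282, plus strand of hg38), the alpha chain of the laminin receptors alpha6beta1 and alpha6beta4, was examined for splicing in the study. Its transcripts end their coding sequence in alternative exons that give the receptor different cytoplasmic tails. In GENCODE 44, 3 of its 8 coding transcripts end in a part of 105 bases in exon 25, and 4 end in a part of 159 bases further downstream. Both are shown because they are the unit of that splicing, with capitals marking the 5 bases they share at the start.
ITGA6, coding part at chr2:172501772-172501876: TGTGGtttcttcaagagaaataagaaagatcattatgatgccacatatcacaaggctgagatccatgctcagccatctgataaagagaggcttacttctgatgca
ITGA6, coding part at chr2:172504091-172504249: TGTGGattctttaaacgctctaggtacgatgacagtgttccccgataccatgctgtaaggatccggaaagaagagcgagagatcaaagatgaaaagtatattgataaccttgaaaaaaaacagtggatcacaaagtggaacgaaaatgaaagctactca
The deposited values are totals per gene, so the use of these parts was not analysed here. The ITGA6 total was 40.1 FPKM with DMSO and 41.4 FPKM with melatonin at 24 h, and 36.7 FPKM and 40.1 FPKM at 48 h. The melatonin to DMSO ratio of its FPKM was 1.03 (95% counting interval 0.994 to 1.07) at 24 h and 1.09 (1.05 to 1.13) at 48 h. The gene total was thus little different between the treatments at both times, and the 24 h interval included 1.

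Of the 78 genes, 25 (32.1%) reached an FPKM of 1 in at least 1 library, whereas 10751 of the 19847 protein-coding genes (54.2%) did. These 25 were 11 of 44 collagen genes, 4 of 12 laminin genes, 8 of 20 integrin genes and both genes that share only the letters. A total of 24 reached that level in all 4 libraries, and ITGA7 reached it only with melatonin at 48 h (1.14 FPKM). The gene nearest below the limit was ITGA10, with a highest value of 0.727 FPKM. A further 29 genes stayed below an FPKM of 1 with more than 3 reads in a library, 24 had 3 reads or fewer in each library, and 13 of these 24 were listed at 0 throughout. The chains of type I and type III collagen, the common fibres of connective tissue, were in these low groups. COL3A1 and COL1A2 were listed at 0 in every library and COL1A1 had 14, 6, 10 and 1 reads in library order.

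**Figure D1:**
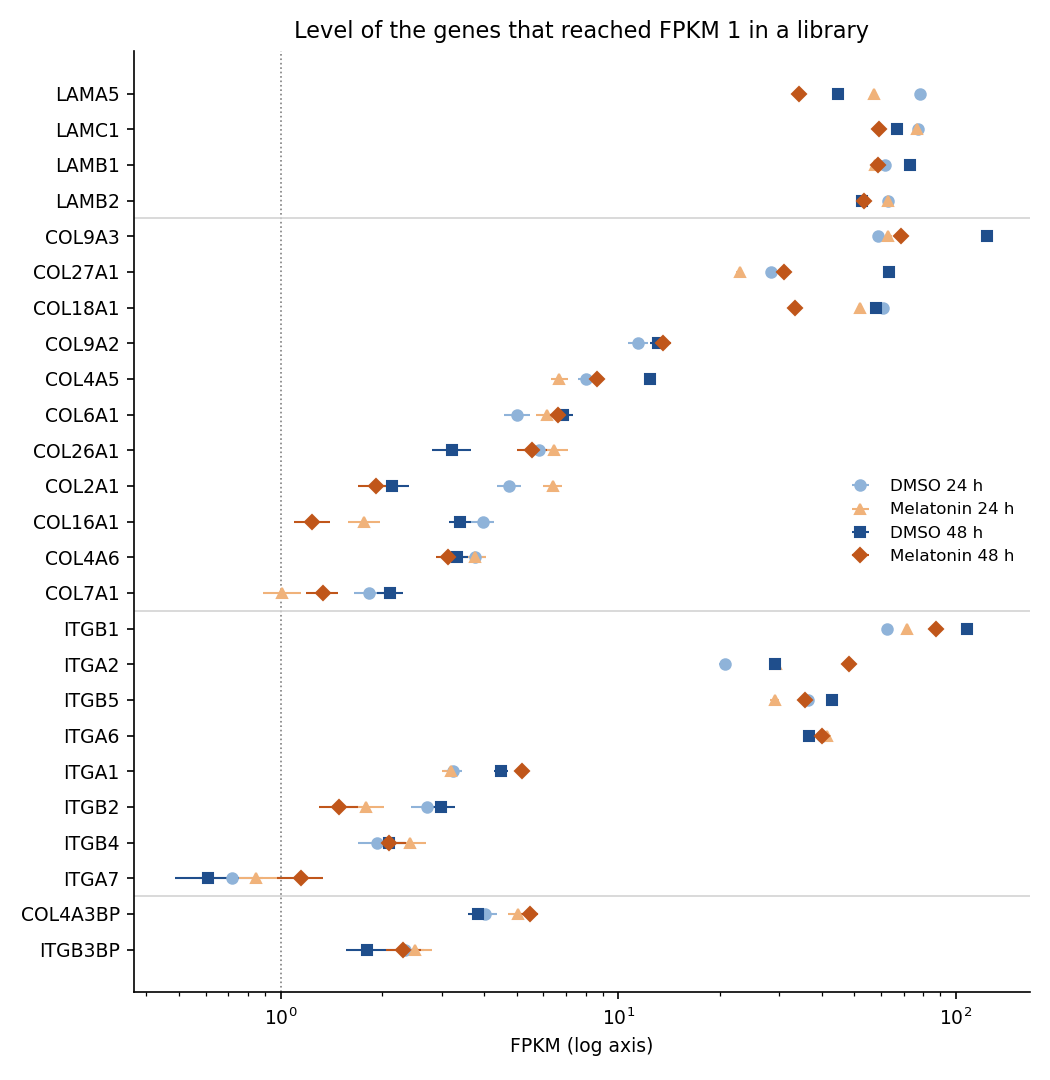
Level of the 25 genes that reached an FPKM of 1, in FPKM on a log axis, with 1 symbol per library and bars for the exact 95% Poisson interval of the reads. Grey lines separate laminin, collagen and integrin genes and the genes that share only the letters, the dotted line marks an FPKM of 1, and the 4 laminin genes sit together at the high end while the collagen genes spread from 1.01 to 123 FPKM.

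The labelled cell type was checked with marker genes. All 7 hepatocyte markers were expressed, with ALB between 2717 and 3343 FPKM, whereas none of 7 endothelial markers and none of 6 leukocyte markers reached an FPKM of 1. Of 8 fibroblast and stellate cell markers only PDGFRB did, and DCN was listed at 0 in all libraries. The summed level of the fibroblast and stellate list was 1.99 FPKM in DMSO 24 h, 1.04 FPKM in melatonin 24 h, 3.69 FPKM in DMSO 48 h and 4.53 FPKM in melatonin 48 h, most of it PDGFRB, and its part in the results was not tested. Of the hepatocyte markers, AFP (1131, 985, 1902 and 782 FPKM) was lower and TTR (41.9, 46.8, 50.6 and 256 FPKM) higher with melatonin at 48 h by more than 2-fold. AFP shares its highest library, DMSO 48 h, with COL27A1, COL9A3 and ITGB1. No other hepatocyte marker was highest in that library, and APOB, SERPINA1 and HNF4A were lowest in it. In bulk RNA, fewer cells of a kind and less RNA per cell cannot be told apart.

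Laminin chains were the family with the most transcript at 24 h. The 12 genes summed to 281 FPKM with DMSO and 255 FPKM with melatonin at 24 h, and to 239 FPKM and 206 FPKM at 48 h, although these differences depend on the scale. The melatonin to DMSO ratio of the sum at 24 h was 0.906 as deposited and 1.02 after rescaling to TPM, and the 48 h to 24 h ratio in DMSO was 0.849 and 1.20. Nearly all laminin transcript came from 4 genes, which together encode the chains of laminin-511 and laminin-521, forms found in many adult basement membranes. LAMA5 (chr20:62307955-62367312), the alpha chain, measured 78.3 FPKM in DMSO 24 h, 57.0 FPKM in melatonin 24 h, 44.8 FPKM in DMSO 48 h and 34.3 FPKM in melatonin 48 h. It was lower with melatonin than with DMSO at each time, and lower at 48 h than at 24 h with either agent. The melatonin to DMSO ratio of LAMA5 was 0.729 (0.714 to 0.744) at 24 h and 0.766 (0.747 to 0.785) at 48 h.

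The beta and gamma chains moved less. LAMC1, the gamma chain common to most laminins, measured 77.5, 76.8, 67.0 and 59.1 FPKM in library order. LAMB1, the beta chain of laminin-511, measured 61.5, 57.5, 73.2 and 58.8 FPKM in library order. LAMB2, the beta chain of laminin-521, measured 63.0, 63.0, 52.7 and 53.6 FPKM. On this scale LAMB1 was highest and LAMB2 lowest in DMSO 48 h, and within each library LAMB1 made up 49.4%, 47.7%, 58.1% and 52.3% of the summed level of these beta chains in library order. The remaining 8 laminin genes were all below an FPKM of 1. Among them were LAMA1, an alpha chain, with at most 15 reads, and LAMB3, a beta chain, with at most 12.

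Ratios between partner chains within a library do not depend on how the libraries are scaled. LAMA5 relative to LAMC1 was 1.01 (0.987 to 1.03) in DMSO 24 h, 0.742 (0.725 to 0.760) in melatonin 24 h, 0.669 (0.653 to 0.685) in DMSO 48 h and 0.580 (0.565 to 0.596) in melatonin 48 h. The alpha chain was therefore level with the gamma chain in a single library. The counting intervals of the 4 libraries did not overlap, and neither did those of LAMB1 relative to LAMC1. With the many reads of these genes such intervals are narrow, and they cover counting error only. LAMB2 relative to LAMC1 was 0.813, 0.819, 0.787 and 0.906 in library order, and LAMB1 relative to LAMC1 was 0.794, 0.748, 1.09 and 0.994.

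**Figure D2:**
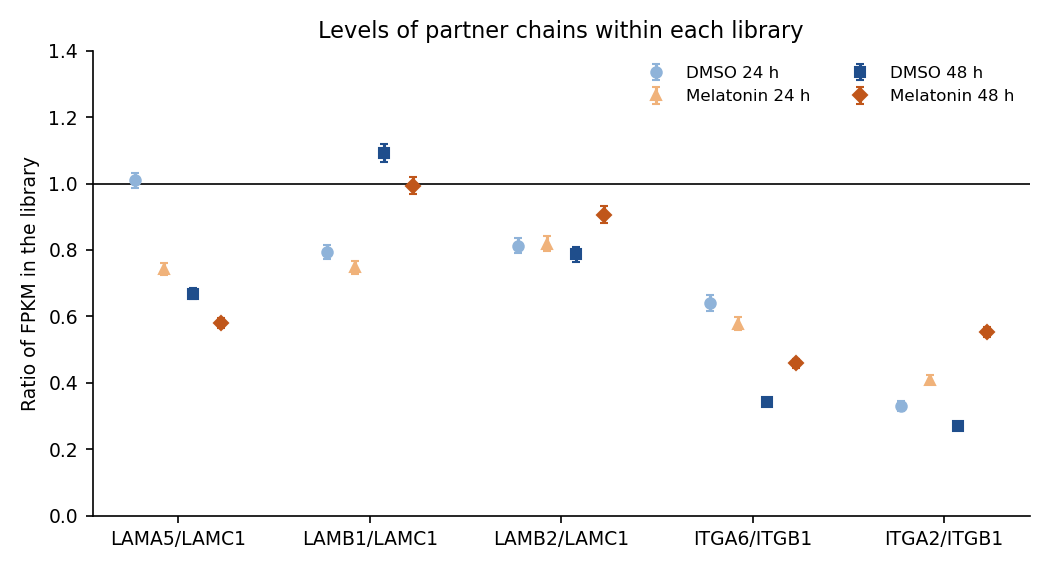
Ratio of the FPKM of partner chains within each library, with exact 95% counting intervals as bars, for laminin chains over LAMC1 and integrin alpha chains over ITGB1. LAMA5 over LAMC1 runs from 1.01 in DMSO 24 h to 0.580 in melatonin 48 h, and ITGA2 over ITGB1 is highest in melatonin 48 h at 0.553.

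Collagen genes were dominated by chains that are not those of classical fibres. The 44 genes summed to 194 FPKM with DMSO and 185 FPKM with melatonin at 24 h, and to 293 FPKM and 177 FPKM at 48 h, so that DMSO 48 h stood above the other libraries. That excess came mostly from COL9A3 and COL27A1, whose values follow, and not from the family at large. The sums at 24 h, whose ratio was 0.953, turned to a ratio of 1.08 on the TPM scale, whereas at 48 h the ratio was 0.602 as deposited and 0.579 on that scale. COL9A3 (chr20:62816244-62841159), a FACIT chain of type IX collagen known from cartilage, was the highest, with 58.8 FPKM in DMSO 24 h, 63.1 FPKM in melatonin 24 h, 123 FPKM in DMSO 48 h and 68.8 FPKM in melatonin 48 h. Its partner COL9A2 was lower and nearly flat at 11.5, 13.2, 13.1 and 13.6 FPKM, and the third chain of the type IX trimer, COL9A1, was listed at 0. COL9A3 relative to COL9A2 was accordingly 5.12, 4.80 and 5.07 in DMSO 24 h, melatonin 24 h and melatonin 48 h, and 9.38 (8.84 to 9.97) in DMSO 48 h.

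COL27A1 (chr9:114155560-114312511), a fibrillar chain of cartilage that forms thin fibres, showed the same outlying library. It measured 28.3 FPKM in DMSO 24 h, 22.9 FPKM in melatonin 24 h, 63.3 FPKM in DMSO 48 h and 30.9 FPKM in melatonin 48 h. The DMSO 48 h library was thus about 2.24 times the DMSO 24 h library, and the other libraries lay between 22.9 and 30.9 FPKM. COL18A1 (chr21:45405137-45513720), the basement membrane collagen from which endostatin is cut, measured 60.8, 52.0, 58.1 and 33.4 FPKM in library order, with melatonin 48 h as the low library. In GENCODE 44, 18.5% of the exonic bases of COL18A1 also lie in exons of SLC19A1, so part of its reads could belong to that gene.

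Type II collagen, the main fibre of cartilage, had 1 gene, COL2A1 (chr12:47972965-48004486), with 4.76 FPKM in DMSO 24 h, 6.39 FPKM in melatonin 24 h, 2.14 FPKM in DMSO 48 h and 1.91 FPKM in melatonin 48 h. Both libraries of 24 h lay above both of 48 h. COL16A1 (chr1:31652247-31704319), a FACIT chain, instead separated by treatment, with 3.96 FPKM and 3.40 FPKM in DMSO 24 h and DMSO 48 h and 1.77 FPKM and 1.24 FPKM in melatonin 24 h and melatonin 48 h.

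**Figure D3:**
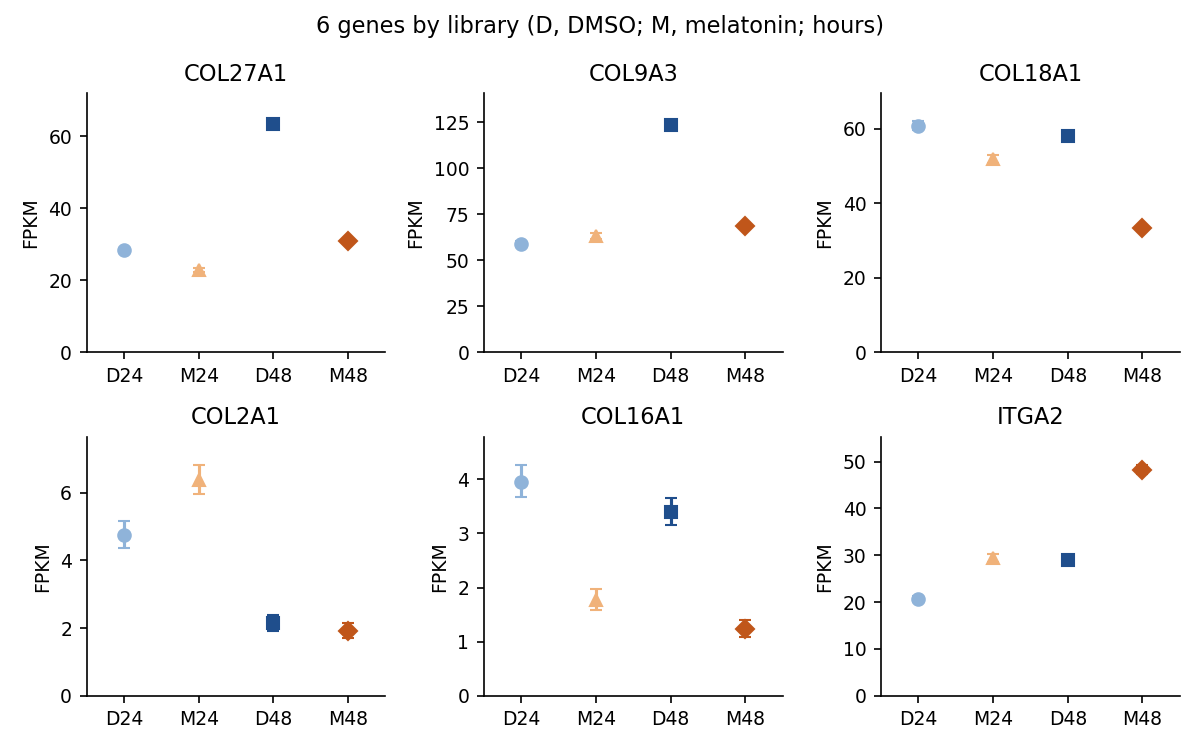
FPKM of COL27A1, COL9A3, COL18A1, COL2A1, COL16A1 and ITGA2 in the 4 libraries (D, DMSO; M, melatonin; 24 or 48, hours), with exact 95% Poisson intervals of the reads as bars and all axes from 0. COL27A1 and COL9A3 are high in DMSO 48 h alone, COL2A1 separates by time, COL16A1 separates by treatment, and ITGA2 is highest in melatonin 48 h.

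The other measured collagens were lower. Among basement membrane chains, COL4A5 measured 8.02, 6.69, 12.4 and 8.67 FPKM in library order, and COL4A6, transcribed from the other side of the same interval, measured 3.76, 3.77, 3.33 and 3.12 FPKM. Their ratio within a library was 2.13 (1.94 to 2.35), 1.78 (1.62 to 1.95), 3.72 (3.41 to 4.06) and 2.77 (2.53 to 3.04), so that the chains of this pair did not keep a fixed proportion. COL7A1, which forms the anchoring fibrils below epithelia, measured 1.83, 1.01, 2.11 and 1.33 FPKM and was lower in both melatonin libraries than in either DMSO library. COL6A1, a chain of the beaded filaments around cells, measured 5.03, 6.16, 6.84 and 6.61 FPKM. Its partner COL6A2 had only 20, 53, 40 and 66 reads, and COL6A3 at most 4, so that COL6A1 stood 11.97 to 24.8 times above COL6A2. COL26A1 measured 5.82, 6.44, 3.21 and 5.55 FPKM, lowest in DMSO 48 h.

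**Figure D4:**
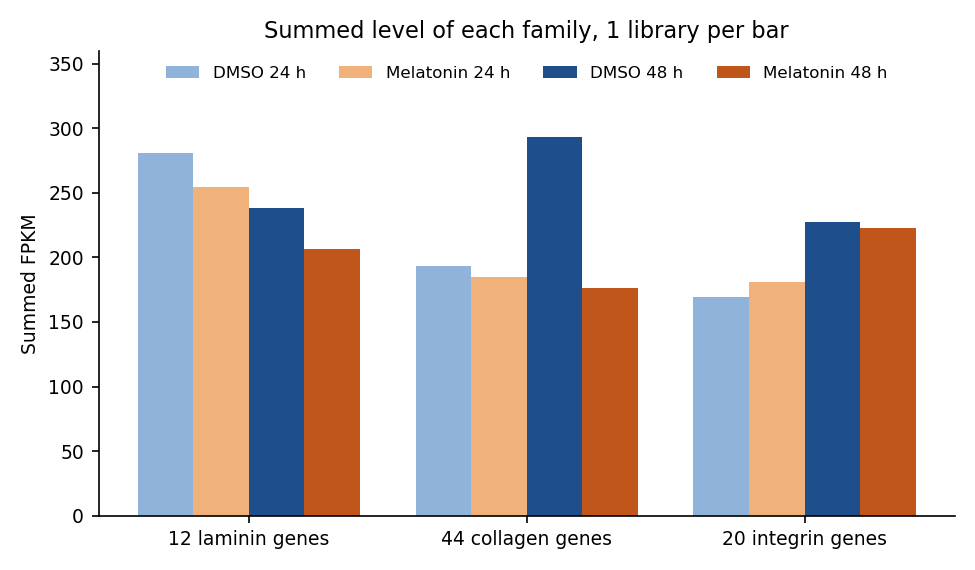
Summed FPKM of the 12 laminin, 44 collagen and 20 integrin genes, with 1 bar per library and the axis from 0. The collagen sum stands out in DMSO 48 h (293 FPKM against 177 to 194 FPKM in the other libraries), and the excess is mostly COL9A3 and COL27A1. Laminin genes are between 281 FPKM in DMSO 24 h and 206 FPKM in melatonin 48 h (an order that changes on the TPM scale), and integrin genes are higher at 48 h than at 24 h.

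Integrin genes summed to 170 FPKM with DMSO and 181 FPKM with melatonin at 24 h, and to 228 FPKM and 223 FPKM at 48 h. ITGB1, the beta chain that pairs with most alpha chains, carried the largest share, with 62.6 FPKM in DMSO 24 h, 71.7 FPKM in melatonin 24 h, 108 FPKM in DMSO 48 h and 87.4 FPKM in melatonin 48 h. Of the 12 alpha chains under the name rule, ITGA6 and ITGA2 carried most transcript, although ITGAV, outside that rule, exceeded ITGA2 in both DMSO libraries. ITGA2 (chr5:52989326-53094779), which pairs with ITGB1 as a collagen receptor, measured 20.6 FPKM in DMSO 24 h, 29.4 FPKM in melatonin 24 h, 29.0 FPKM in DMSO 48 h and 48.3 FPKM in melatonin 48 h. It was higher with melatonin than with DMSO at each time, and the ratio of ITGA6 to ITGA2 was 1.94, 1.41, 1.26 and 0.829 in library order. The laminin-binding chain therefore exceeded the collagen-binding chain in every library except melatonin 48 h.

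ITGB1 stood in a near constant proportion to the summed alpha chains in 3 libraries, at 0.952 in DMSO 24 h, 0.944 in melatonin 24 h and 0.907 in melatonin 48 h, and was at 1.497 in DMSO 48 h. This sum leaves out ITGAV, which pairs with several beta chains and measured 23.8, 24.8, 34.8 and 32.4 FPKM in library order. ITGB5, a partner of ITGAV in the receptor for vitronectin, measured 36.6, 29.1, 42.8 and 35.6 FPKM, lower with melatonin at each time. ITGB4, the hemidesmosome partner of ITGA6, was only 0.0482 to 0.0584 of the level of ITGA6, with 1.93, 2.42, 2.09 and 2.098 FPKM.

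The remaining integrins were low. ITGA1, a further collagen receptor chain, measured 3.24, 3.18, 4.49 and 5.19 FPKM, although 13.2% of its exonic bases also lie in exons of other genes, among them PELO. The leukocyte chain ITGB2 measured 2.71, 1.78, 2.99 and 1.48 FPKM and was lower in both melatonin libraries. ITGA7, a laminin receptor chain of muscle, measured 0.718, 0.843, 0.608 and 1.14 FPKM. ITGA3, ITGA5, ITGB3, ITGB6, ITGB7 and ITGB8 were all below an FPKM of 1, and ITGA8 was listed at 0. Of the genes that share only the letters, COL4A3BP measured 4.03, 5.05, 3.85 and 5.46 FPKM and ITGB3BP 2.33, 2.50, 1.80 and 2.31 FPKM.

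For melatonin against DMSO at 24 h, a gene was compared when its FPKM reached 1 in 1 library or both and was called when log2((FPKM + 1)/(FPKM + 1)) was at least 1 or at most -1, which understates the change of low genes. None of the 24 genes compared was called, and 0.63% of the 10481 protein-coding genes compared were called, or 4.35% of all genes compared. The median log2 fold change of the 24 genes was -3.11e-05 and that of the protein-coding genes 0.04, with 12 of the 24 above 0 and 12 below, although the signs of 5 (LAMC1, LAMB1, LAMB2, ITGA1 and COL4A6), all close to 0, turned under another scaling. The extremes were COL16A1 at -0.84 and ITGA2 at 0.49. The COL16A1 ratio of FPKM was 0.446 (0.390 to 0.509), so on the plain ratio it was below 0.5 although its log2 value with the added 1 was not called.

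At 48 h, COL27A1 was the single gene called of the 25 compared, lower with melatonin at a log2 fold change of -1.01, and 2.39% of protein-coding genes (1.36% lower) or 5.72% of all genes were called. The plain ratio of COL27A1 was 0.489 (0.477 to 0.501), which puts the gene at the edge of the limit. With library sizes taken as the plain sum of the reads its log2 fold change was -0.98 and no gene was called. Short of the limit were COL16A1 at -0.97, COL9A3 at -0.83 and COL18A1 at -0.78, all lower with melatonin. On the plain ratio COL16A1 at 0.364 (0.314 to 0.421) and ITGB2 at 0.496 (0.421 to 0.584) were also below 0.5. The added 1 kept these low genes from being called. The largest values above 0 were those of ITGA2 at 0.71 and COL26A1 at 0.64. The median of the 25 genes was -0.11 with 10 above 0 and 15 below (the signs of LAMB2, COL9A2 and ITGB4 turned under TPM), against a median of -0.01 for the protein-coding genes compared. By class, the summed FPKM of the fibrillar collagens was 0.499 of that with DMSO and that of FACIT collagens 0.597, sums that are mostly COL27A1 and COL9A3, while COL2A1 (0.892) and COL9A2 (1.03) of the same classes differed less. The ratio was 0.761 for the laminin alpha chains (nearly all LAMA5), 0.756 for network collagens and 0.999 for beaded filament collagens. For COL26A1, COL7A1 and COL28A1 summed it was 1.29, with COL26A1 at 1.73 and COL7A1 at 0.631. It was 1.11 for the laminin-binding and 1.595 for the collagen-binding integrin alpha chains (mostly ITGA2), and 0.814 for the integrin beta chains.

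**Figure D5:**
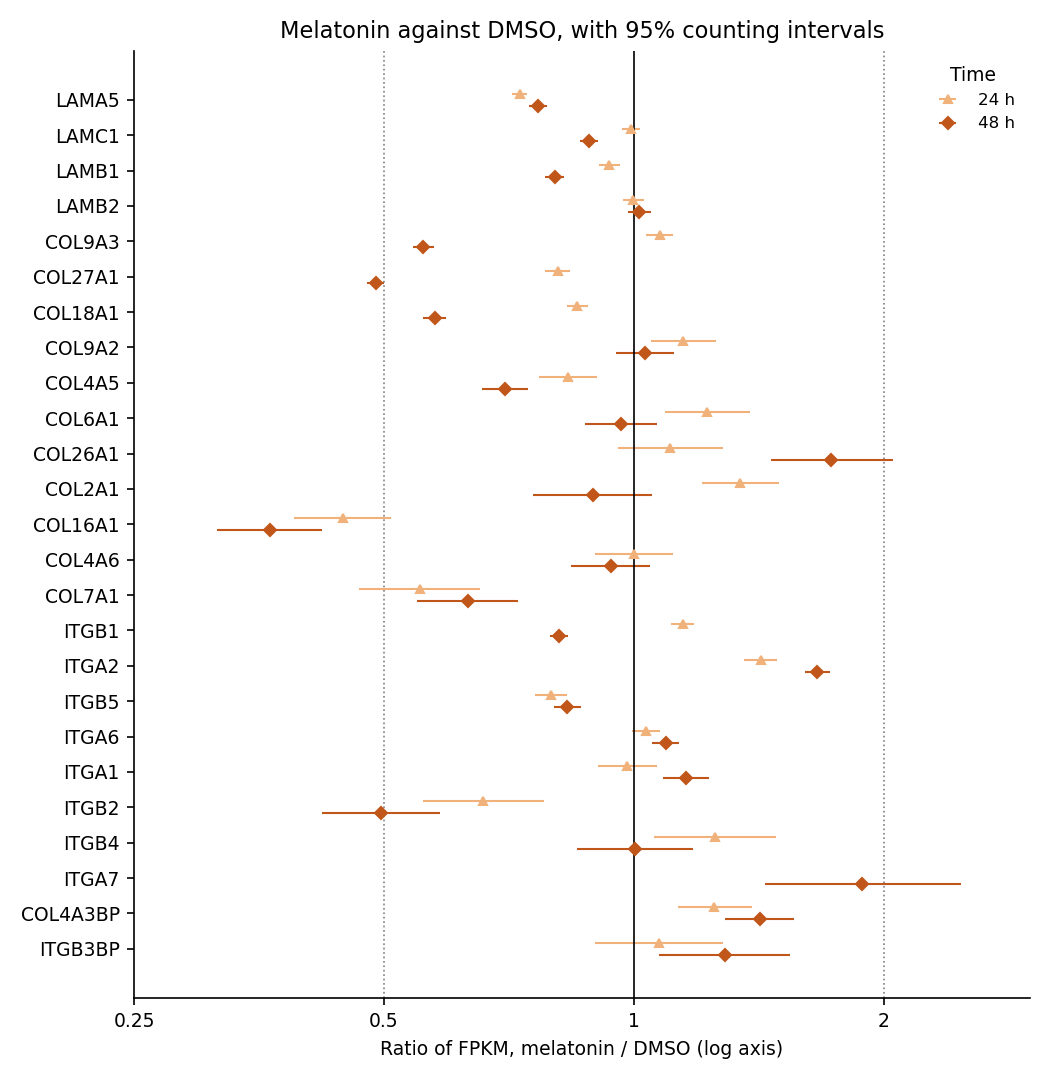
Ratio of FPKM with melatonin to FPKM with DMSO at 24 h (triangles) and 48 h (diamonds) for each gene compared, on a log axis, with exact 95% counting intervals as bars and dotted lines at a 2-fold difference. COL16A1 lies left of the dotted line at both times, ITGA2 lies to the right of 1 at both times, and COL9A3 and ITGB1 lie on opposite sides of 1.

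The comparisons at 24 h and at 48 h share no library, and 24 genes were compared in both. Of these, 10 were lower with melatonin at both times, 7 were higher at both and 7 differed in sign, which gave the same sign in 70.8% of these genes and in 67.8% of protein-coding genes, counts that include the genes named above whose signs turned under a scaling. The 95% counting interval of the ratio lay below 1 at both times for 9 genes, against 16.1% of protein-coding genes, a share that rises with the number of reads a gene has. These were LAMA5, LAMB1, COL27A1, COL18A1, COL4A5, COL16A1, COL7A1, ITGB5 and ITGB2. Of these only LAMB1 turned above 0 at 24 h when the values were rescaled to TPM (log2 fold change 0.08 in place of -0.10). On that scale COL18A1 was at -0.05 and COL4A5 at -0.08. This check covers signs only, and the intervals are those of the deposited FPKM. COL16A1 had ratios of 0.446 (0.390 to 0.509) and 0.364 (0.314 to 0.421), ITGB2 of 0.659 (0.557 to 0.779) and 0.496 (0.421 to 0.584), and COL7A1 of 0.552 (0.466 to 0.653) and 0.631 (0.547 to 0.726).

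The interval lay above 1 at both times for ITGA2 and COL4A3BP, that is 2 genes, against 19.9% of protein-coding genes. ITGA2 had ratios of 1.42 (1.36 to 1.49) and 1.66 (1.61 to 1.72), and COL4A3BP, which is no matrix gene, of 1.25 (1.13 to 1.39) and 1.42 (1.29 to 1.56). For 2 genes, COL9A3 and ITGB1, the intervals lay above 1 at 24 h and below 1 at 48 h, as they did for 5.79% of protein-coding genes. Intervals of the remaining 11 included 1 at one or both times. Beside COL27A1 and COL9A3 at 48 h stands the high value of the single DMSO 48 h library that both ratios use, and whether another such culture would share it was not tested.

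Over both times, an additive fit of treatment and time to the 4 libraries left 1 residual degree of freedom, with the spread taken from how far the melatonin difference varied between the times and moderated over all genes, not from replicate cultures. None of the 25 genes passed an adjusted p of 0.05 in limma, and 0% of 10751 protein-coding genes did. At an unadjusted p under 0.05 there were 8 of the 25, against 16.6% of protein-coding genes. Lower with melatonin among them were COL16A1 (log2 difference -0.91, limma 95% interval -1.27 to -0.54, adjusted p = 0.121), COL27A1, COL18A1, COL4A5, LAMA5 and ITGB2. Higher were ITGA2 (0.60, 0.25 to 0.95, limma adjusted p = 0.153) and COL4A3BP. On the TPM scale 6 of 31 genes had an unadjusted limma p under 0.05 (19.4%, against 12.4% of protein-coding genes). These were COL16A1, COL26A1, COL27A1, COL7A1, ITGA2 and ITGB2. COL18A1, COL4A5, LAMA5 and COL4A3BP were no longer among them.

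With time in DMSO, 2 of 24 genes compared were called, COL27A1 with a log2 fold change of 1.14 and COL9A3 with 1.06, both higher at 48 h, and 4.43% of protein-coding genes (1.65% higher) or 7.74% of all genes were called. The lowest values were COL2A1 at -0.87, LAMA5 at -0.79 and COL26A1 at -0.70, none of them called. ITGB1 followed the called genes at 0.77. The median of the 24 genes was 0.09 and that of protein-coding genes -0.01. Rescaling to TPM shifted the median of protein-coding genes by 0.47 in this comparison, by 0.25 with time in melatonin and by 0.17 for melatonin at 24 h, so that small differences depend on the scale. The signs of 8 of the 24 genes, LAMC1, LAMB2, COL18A1, COL4A6, COL16A1, ITGA6 and both COL4A3BP and ITGB3BP, turned under a scaling, and those of COL27A1, COL9A3, COL2A1 and LAMA5 did not.

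With time in melatonin, 1 of 25 genes compared was called, COL2A1, lower at 48 h with a log2 fold change of -1.34 and a plain ratio of 0.299 (0.260 to 0.343). The background was 0.925% of protein-coding genes (0.429% lower) and 4.15% of all genes. In DMSO the ratio of COL2A1 was 0.451 (0.391 to 0.518), and these comparisons share no library. LAMA5 was at -0.72 and COL18A1 at -0.62, and ITGA2 at 0.70 and ITGA1 at 0.57 were the largest above 0. COL27A1 and COL9A3, called in DMSO, were at 0.42 and 0.12 here. The median of the 25 genes was 0.03 and that of protein-coding genes -0.06. The signs of 7 of the 25, LAMB2, ITGA6, ITGB4, ITGB2, COL4A6, COL26A1 and ITGB3BP, turned under a scaling. Among the cell type markers, PDGFRB (log2 fold change 1.59) and TTR (2.42) were called higher at 48 h in this comparison.

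Genes around these families were taken from hand-written lists. Of all protein-coding genes compared, 0.63% were called for melatonin at 24 h and 2.39% at 48 h. With time, 4.43% were called in DMSO and 0.925% in melatonin. At these shares few or no calls would fall in a list of this size, so a list without calls says little. Of 29 genes that modify, fold or cross-link collagen, 19 were compared and none was called in any of the 4 comparisons, among them SERPINH1, the collagen chaperone, at 33.1, 24.0, 34.1 and 25.4 FPKM in library order. Of 31 integrin adaptor genes, 24 were compared, with VCL (vinculin) called higher with melatonin at 48 h (log2 fold change 1.05, 4.91 against 11.3 FPKM) and TNS1 (tensin 1) called lower with time in DMSO (-1.23). No gene was called among the 7 or 8 compared of 17 metalloproteases and inhibitors, the 6 or 7 compared of 11 other matrix receptors, or the 2 compared of 6 integrins named with letters.

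Among 18 matrix partners, 15 were compared. SPP1 (osteopontin), a ligand of ITGAV integrins, was called lower with melatonin at both times, with 208 FPKM in DMSO 24 h, 88.9 FPKM in melatonin 24 h, 265 FPKM in DMSO 48 h and 84.1 FPKM in melatonin 48 h (log2 fold changes -1.21 and -1.64). VTN (vitronectin), which binds ITGAV with ITGB5, was called lower with melatonin at 48 h (-1.496) and with time in melatonin (-1.10). HSPG2 (perlecan), a heparan sulfate proteoglycan of basement membranes, was called lower with time in DMSO (-1.43), as was SPARC (-1.03).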

How the data were processed

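Polyadenylated RNA of HepG2 cells was sequenced in 4 libraries, 1 per condition. By the methods of the study, the authors used MapSplice to place paired-end reads on hg38 and took expression from Cufflinks, and the processing notes list Bowtie2 2.0.6, TopHat2 2.0.9, Cufflinks 2.1.1 and Cuffdiff 2.1.1 without roles. The annotation is not given in the sources used here. The authors deposited FPKM per Ensembl gene with the gene length in bp. Reads were recovered from FPKM times length, which gave whole numbers (within 0.001) for 100% of values above 0. The library size implied by FPKM was 0.849, 0.888, 0.950 and 0.973 of the sum of these reads in library order.

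Genes whose FPKM reached 1 in 1 library or both were compared on log2(FPKM + 1) and called at 2-fold. Values have exact Poisson intervals, and ratios exact Clopper-Pearson intervals conditional on the sum of reads (95%, scipy 1.17.1, numpy 2.4.6, pandas 2.3.3), for counting error only, since reads without molecular identifiers are not independent molecules. With 1 library per condition no p-value was computed for a single time. Treatment over both times was tested in an additive fit of treatment and time (limma 3.58.1 with a mean trend in R 4.3.3, Benjamini-Hochberg adjustment), chosen after seeing the data. The scripts were tested on simulated data. The genes and lists were chosen with earlier results of these data known. All genes that reached an FPKM of 1 or were called are named, as are called genes of the lists. Some low genes and the genes at 0 were named after their values were seen. Overlaps of exons are from GENCODE 44, without use of strand, and sequences from hg38 and RefSeq (GRCh38.p14).

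Alternatives were a pseudocount of 0.1, no filter, a minimum FPKM of 5, a minimum of 50 reads, a 1.5-fold limit, TPM, centring on the protein-coding median, plain sums of reads as library sizes, an exact binomial test of the reads with adjusted p under 0.05 beside the fold, which compares libraries and not conditions, and leaving out COL4A3BP and ITGB3BP.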

Additional observations from a re-analysis of the deposited data

Results flagged for a closer look

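COL9A3 and ITGB1 differed between times in the direction of the melatonin to DMSO ratio, with counting intervals on opposite sides of 1. For COL9A3 the ratio was 1.07 at 24 h and 0.558 at 48 h. For ITGB1 it was 1.15 at 24 h and 0.812 at 48 h. With 1 library per condition the difference between the times was not tested, and the DMSO 48 h library held the highest value of both genes.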

How the results depend on the processing

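With a pseudocount of 0.1, 1 gene was called at 24 h in place of 0 (1.99% of protein-coding genes), 2 at 48 h in place of 1 (5.96%), each time gaining COL16A1, and 3 with time in DMSO in place of 2 (8.52%), gaining COL2A1 as lower. A 1.5-fold limit gave 1 gene at 24 h (4.66% of protein-coding genes), 7 at 48 h (13.1%), 6 with time in DMSO (18.4%) and 4 with time in melatonin (6.76%). On the TPM scale 2 genes were called at 48 h (4.52%) and 5 of 30 with time in DMSO (11.7%), and the medians were 0.20 at 24 h, 0.50 with time in DMSO and 0.31 with time in melatonin. Plain sums of reads left 0 genes at 48 h (2.34%), since COL27A1 was at -0.98. In the additive fit of treatment and time on the TPM scale, 1 gene, COL16A1, passed in limma, with 335 of 11953 protein-coding genes. With a pseudocount of 0.1 that fit called 0 genes. Of the counts and medians, 13 moved and 64 did not (counts within 1.5 times, medians within a 95% rank interval over the genes compared). Some could not move, such as the call counts without COL4A3BP and ITGB3BP, which were not called in the main comparisons. The tally is therefore no measure of how firm the results are. Of the values of single called genes, 27 kept their side of the limit and none turned in sign. No replicate could be left out, and the labels give no replicate numbers to pair libraries by, so time was the block in the additive fit. Depth limits the 24 genes with 3 reads or fewer, for which a difference was not detectable.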

Other observations

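Some genes below an FPKM of 1, singled out after their values were seen, differed between libraries by more than their counting error. LAMA3, a laminin alpha chain of epithelia, had 106 reads in DMSO 24 h, 35 in melatonin 24 h, 136 in DMSO 48 h and 39 in melatonin 48 h, and its melatonin to DMSO ratio was 0.299 (0.198 to 0.442) at 24 h and 0.283 (0.193 to 0.407) at 48 h. COL5A2, a chain of the fibrillar type V collagen, had 27, 7, 54 and 16 reads in that order, with ratios of 0.235 (0.0863 to 0.552) and 0.293 (0.156 to 0.519). COL11A2, a chain of type XI collagen, had 21, 8, 86 and 26 reads, with ratios of 0.345 (0.132 to 0.810) and 0.299 (0.185 to 0.468). COL6A2 had more reads with melatonin at both times (20, 53, 40 and 66 reads), with ratios of 2.40 (1.41 to 4.24) and 1.63 (1.08 to 2.48). ITGA9, an integrin alpha chain, had 21, 22, 27 and 72 reads, high in melatonin 48 h alone. The list is not complete. At 48 h the ratio was also off 1 for ITGA10 at 1.62 (1.17 to 2.27) and for ITGA5 at 0.116 (0.0130 to 0.489). All of these are FPKM values under 1, which stayed outside the comparisons. The share of low protein-coding genes with such intervals was not counted, so whether this is particular to these genes was not tested.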
